A study of Mus musculus with 30 samples.

Results

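The 10 genes described here are targets of the hypoxia-inducible factors (HIF) that lie outside the glycolytic pathway: Vegfa, Adm, Egln1, Egln3, Bnip3, Pdk1, Ndrg1, Ankrd37, P4ha1 and Ddit4. They were chosen by name, and each was found as 1 row among the 29861 genes of the deposited table. All 10 exceeded the minimum level for testing, 1 TPM (transcripts per 1000000 transcripts) in at least 3 libraries, which left 13644 genes in all. RNA came from CCG-HTA-1, a single primary tail fibroblast line of UMHet3 mice, a genetically mixed stock, at passage 4. Every culture was kept in high-glucose medium without sodium pyruvate, with 10% fetal calf serum and an antimycotic, at ambient oxygen, 37 °C and 10% CO2. Compounds were added 24 hours after plating and RNA was taken 48 hours later. The 9 groups were Antimycin A, Dihydrorotenone, Diphenyleneiodonium Cl, Cardamonin, BerberineA, Clofilium tosylate, AEG 3482 and Podofilox, with 3 libraries each, and the solvent control DMSO, with 6. The series' text speaks of 5 DMSO replicates where the labels give 6, and doses are not given in the sources used here. Mice were 5 to 8 weeks old for 29 libraries and 8 to 11 weeks old, per the labels, for Dihydrorotenone replicate 1. As all libraries share 1 line, the replicates are cultures or libraries and not animals, and the tests measure only the spread between them. No group was cultured at low oxygen, so the data hold no hypoxic reference.

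HIF is a pair of an alpha subunit (HIF1A or EPAS1) and ARNT. Where oxygen is plentiful, EGLN enzymes hydroxylate the alpha subunit and VHL then marks it for destruction, so that HIF activity is set largely at the protein, a layer that RNA does not show. HIF binds a short core, ACGTG or GCGTG, near its targets, which promote blood vessel growth, limit mitochondrial work, modify collagen and feed back on HIF itself. Among the compounds, Antimycin A blocks respiratory complex III, Dihydrorotenone is a relative of the complex I blocker rotenone, diphenyleneiodonium inhibits flavin-containing enzymes, clofilium blocks potassium channels, Podofilox (podophyllotoxin) blocks the assembly of microtubules, Cardamonin is a plant chalcone and AEG 3482 is known for raising heat shock proteins. The series' title places them in a search for compounds that make cells resistant to stress.

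Promoter windows of RefSeq (build GRCm38.p6) were matched for 9 of the 10 genes, all but Ndrg1, in 11 windows of 300 bases (250 before and 50 after a start site). ACGTG, read on both strands, stood in 7 of the 11 windows (7 of the 9 genes), and at least 1 of ACGTG and GCGTG in 9 of the 11 (all 9 genes). Adm and Pdk1 had only GCGTG and Egln3 only ACGTG, and the hits of Vegfa lay in a window whose bases after the start site were not matched to a GENCODE transcript of the gene, its matched window holding neither core. The windows of Egln1 and Ddit4 were not matched in this way either. Over all 32851 windows of the table, 19.6% held ACGTG, 32.4% held GCGTG and 43.8% held either. Shown are the 250 bases before the start site of Bnip3 and Pdk1, whose levels followed each other most closely, and of P4ha1, which parted from them under Cardamonin and AEG 3482. Capitals mark the cores, as ACGTG or GCGTG and as their reverse complements CACGT and CACGC.
Bnip3: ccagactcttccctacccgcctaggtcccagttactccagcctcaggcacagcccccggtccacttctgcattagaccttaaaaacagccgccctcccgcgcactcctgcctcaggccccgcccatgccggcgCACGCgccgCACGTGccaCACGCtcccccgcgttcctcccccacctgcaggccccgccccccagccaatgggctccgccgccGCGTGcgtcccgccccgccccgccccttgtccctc
Pdk1: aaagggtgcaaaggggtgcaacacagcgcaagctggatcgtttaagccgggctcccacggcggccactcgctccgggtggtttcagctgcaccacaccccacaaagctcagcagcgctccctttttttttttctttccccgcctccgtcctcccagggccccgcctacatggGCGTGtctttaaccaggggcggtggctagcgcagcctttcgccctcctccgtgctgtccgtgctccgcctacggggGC
P4ha1: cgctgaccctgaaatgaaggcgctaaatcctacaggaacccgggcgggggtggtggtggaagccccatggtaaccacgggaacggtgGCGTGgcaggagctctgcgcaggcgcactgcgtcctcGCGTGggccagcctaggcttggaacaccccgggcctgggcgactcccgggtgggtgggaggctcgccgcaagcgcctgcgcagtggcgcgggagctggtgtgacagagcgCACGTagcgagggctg
The Bnip3 stretch lies at chr7:138909507-138909756 on the minus strand, that of Pdk1 at chr2:71872974-71873223 on the plus strand and that of P4ha1 at chr10:59323046-59323295 on the plus strand. In Bnip3 the palindrome CACGTG, which counts once on each strand, begins 108 bases before the start site, between 2 GCGTG cores, and another GCGTG lies 35 bases before it. Pdk1 had no ACGTG in this window, only GCGTG 78 bases and 2 bases before the start site, the latter running into the transcript. P4ha1 held ACGTG 16 bases before its start and GCGTG 126 and 163 bases before it. Such matches describe letters and are not evidence of binding.

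Totals over the table lay between 927024 and 937134 TPM, and sequencing depth is unknown because the table holds no counts. TPM is a share of each library, so that fewer cells of a type and less RNA per cell cannot be told apart. All 10 fibroblast markers stood above 1 TPM in every group, with sums of 7124 to 9128 TPM in Cardamonin and 11950 to 19010 TPM in the other groups. Of other lineages, all 5 keratinocyte and all 4 skeletal muscle markers stayed below 1 TPM. The remaining lists were mixed: Cdh5 (at most 0.030 TPM), Ptprc (at most 0.876 TPM), Plin1 (0) and Dct (at most 0.047 TPM) were near 0, but Cd14 reached 118 TPM, Cd68 41.4, Adgre1 12.1, Fabp4 32.2, Tek 8.18 and Mlana 17.0 TPM, and the tendon gene Tnmd 77.2 TPM. Library numbers ran in order through the groups, so that a batch and a group cannot be told apart.

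Podofilox raised most of these genes and Antimycin A lowered many of them, while 5 compounds raised some and lowered others and Dihydrorotenone lowered 2. The counts for BerberineA, Clofilium tosylate and Dihydrorotenone lie near the shares of all genes given below. Calls are genes with an adjusted p below 0.05 in limma, fitted to log2(TPM + 1) of all genes tested. With Podofilox 7 of the 10 rose and 1 fell, where 26.2% of all genes tested rose and 20% fell. With Antimycin A none rose and 5 fell, against 21.8% and 15.5% of all genes. Diphenyleneiodonium Cl gave 3 rises and 1 fall, against 14% and 11.7%. BerberineA gave 2 rises and 1 fall, against 12.6% and 9.16%. Clofilium tosylate gave 1 rise and 2 falls, against 10.9% and 12.5%. Dihydrorotenone gave no rise and 2 falls, against 4.95% and 9.43%, and its overall split depends on scaling: 34.4% of all its calls were rises in the deposited TPM and 53.7% after median-ratio scaling. Cardamonin gave 2 rises and 4 falls where 37.3% and 33% of all genes did the same, and AEG 3482 gave 3 rises and 5 falls, against 41.3% and 26.8%. So many genes changed with these 2 compounds that such counts say little by themselves. The 4 falls under Cardamonin lie near the share of all genes, and its 2 rises lie below it. Under AEG 3482 the 3 rises lie below that share and the 5 falls above it. The median log2 fold change of the 10 genes was 0.40 with Podofilox and 0.33 with Diphenyleneiodonium Cl, and -0.34 with Antimycin A and -0.31 with AEG 3482, where the medians of all genes lay at 0.036, 0.017, 0.032 and 0.097. All 8 comparisons share the DMSO libraries.

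**Figure D1:**
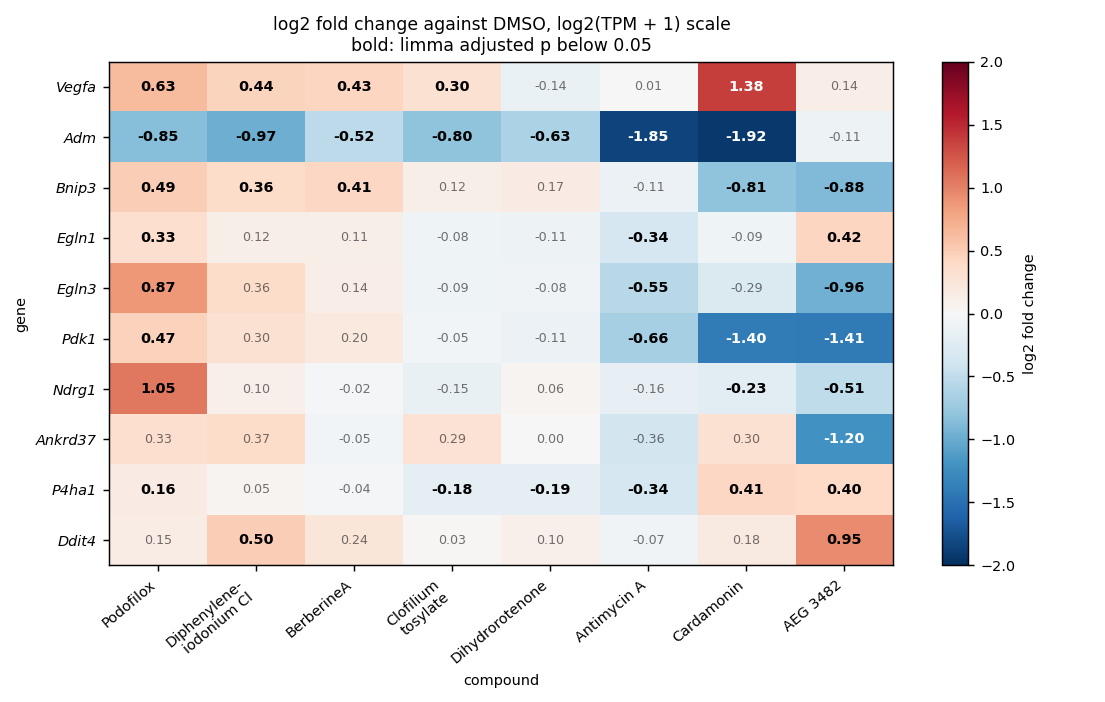
Log2 fold change against DMSO on the log2(TPM + 1) scale for the 10 genes (rows) and 8 compounds (columns), bold where the limma adjusted p was below 0.05. The Adm row is below 0 for all 8 compounds, with -1.92 in Cardamonin and -1.85 in Antimycin A, while Bnip3 and Pdk1 are below -0.8 in Cardamonin and AEG 3482.

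The pair of secreted signals moved apart. Vegfa, the growth factor that drives blood vessel sprouting (ENSMUSG00000023951, chromosome 17, 46016993 to 46032369, minus strand), stood at 72.9, 83.4 and 98.3 TPM in the lowest, median and highest DMSO library. In Cardamonin its 3 libraries held 216, 229 and 214 TPM, all more than any other library of the study. The mean was 2.61-fold that of DMSO, and the log2 fold change was 1.38 ± 0.09 (SE, n = 3 and 6, limma adjusted p = 1.05e-12). Podofilox gave 147, 122 and 120.4 TPM (log2 fold change 0.63), Diphenyleneiodonium Cl 121, 107 and 114 TPM (0.44) and BerberineA 113, 116 and 109 TPM (0.43). All 9 of those libraries lay above the DMSO range. Clofilium tosylate, at 104, 108 and 97.5 TPM, overlapped it with 1 library. Its log2 fold change of 0.30 passed (limma adjusted p = 0.0217) but not without replicate 1 (0.0646) or replicate 2 (0.107), nor with both groups fitted alone (0.0787). In AEG 3482, Antimycin A and Dihydrorotenone the differences of 0.14, 0.01 and -0.14 did not pass. Vegfb, a relative with a lesser part in vessel growth, rose in 5 comparisons, fell in Cardamonin and AEG 3482 and gave 0.11 in Podofilox, so that Cardamonin moved Vegfa and Vegfb in opposite directions (Vegfb log2 fold change -0.22).

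Adm fell with 7 of the 8 compounds. It encodes adrenomedullin, a peptide that widens blood vessels (ENSMUSG00000030790, chromosome 7, 110627661 to 110629820, plus strand). DMSO libraries held 209.7 TPM at the lowest, a median of 237 and 320.1 at the highest. Cardamonin left 67.7, 63.2 and 67.1 TPM, and Antimycin A 71.0, 67.4 and 69.6 TPM. Neither group came near the DMSO range: the means were 25.8% and 27.1% of the DMSO mean, with log2 fold changes of -1.92 ± 0.10 and -1.85 ± 0.10 (SE, n = 3 and 6, limma adjusted p = 2.84e-15 and 2.26e-13). Diphenyleneiodonium Cl gave 116, 132 and 139 TPM, Podofilox 131, 139 and 151 TPM, and Clofilium tosylate 135, 165 and 136 TPM. Their log2 fold changes were -0.97, -0.85 and -0.80. Dihydrorotenone (170.1, 156 and 165 TPM) and BerberineA (164, 182 and 185 TPM) fell least, by 0.63 and 0.52 on the log2 scale. These 15 libraries, too, all lay below the lowest DMSO library. AEG 3482 was the exception, with 248.6, 232 and 225 TPM inside the DMSO range (-0.11 on the log2 scale, adjusted p = 0.345). That value passed only after quantile normalization (-0.27, adjusted p = 0.0160). An antisense transcript, Gm28863, overlaps the gene in the annotation, and whether counting used the strand is not given in the sources used here. Adm2, a relative at 1.18 ± 0.40 TPM in DMSO (SD, n = 6), did not follow: it rose with 6 compounds, to 6.22 ± 0.63 TPM in Cardamonin, and Dihydrorotenone and Diphenyleneiodonium Cl gave log2 differences of 0.03 and 0.16 that did not pass.

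**Figure D2:**
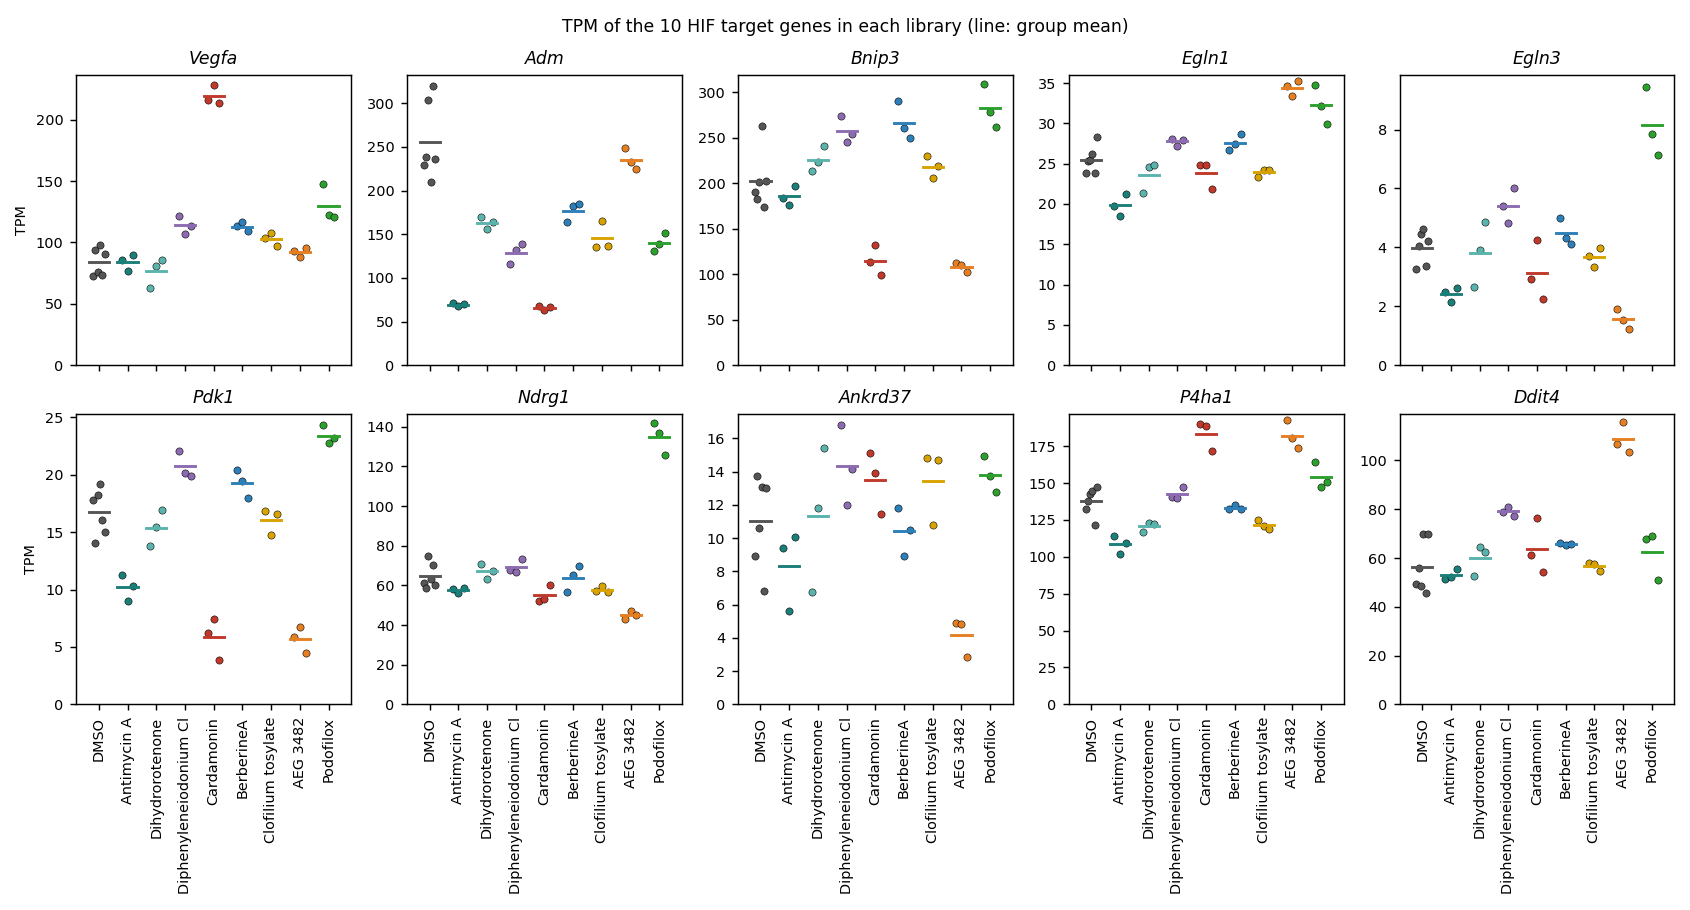
TPM of each of the 10 genes in every library (points) by group, with the group mean as a line and each axis starting at 0. Vegfa is highest in the 3 Cardamonin libraries, Adm lies at 63.2 to 71.0 TPM in Cardamonin and Antimycin A, and Ndrg1 and Egln3 are highest in the 3 Podofilox libraries.

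Of the oxygen sensors, Egln3 varied more than Egln1. Both encode prolyl hydroxylases that mark the HIF alpha subunit and are themselves induced by HIF. Egln3 (ENSMUSG00000035105, chromosome 12, 54178981 to 54203860, minus strand) was low, at 3.28, 4.12 and 4.62 TPM in the lowest, median and highest DMSO library. Podofilox raised it to 9.46, 7.84 and 7.13 TPM, a mean 2.04-fold that of DMSO (log2 fold change 0.87 ± 0.14 SE, limma adjusted p = 1.08e-05). AEG 3482 left 1.92, 1.52 and 1.24 TPM (-0.96) and Antimycin A 2.47, 2.14 and 2.61 TPM (-0.55), both entirely below DMSO. Between the highest and the lowest group mean lay a factor of 5.22, the widest span among the 10 genes. Diphenyleneiodonium Cl, at 5.39, 4.81 and 6.01 TPM, lay wholly above DMSO, yet the log2 fold change of 0.36 missed the threshold (limma adjusted p = 0.0564). It passed without DMSO replicate 4 (0.0422). Cardamonin libraries were spread over 2.91, 4.24 and 2.25 TPM (-0.29, adjusted p = 0.0619). Without Cardamonin replicate 2 the difference was -0.48 and passed (0.00537), as it did without DMSO replicate 1 (0.0379) or 5 (0.0435). Dihydrorotenone (2.64, 3.90 and 4.85 TPM), BerberineA (5.01, 4.31 and 4.12 TPM) and Clofilium tosylate (3.72, 3.34 and 3.99 TPM) all overlapped DMSO, with differences of -0.08, 0.14 and -0.09.

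Egln1 (ENSMUSG00000031987, chromosome 8, 124908587 to 124949324, minus strand) is the main hydroxylase acting on HIF1A in most cells. It held 23.8, 25.4 and 28.3 TPM in the lowest, median and highest DMSO library. AEG 3482 gave 34.7, 33.4 and 35.2 TPM and Podofilox 34.8, 32.2 and 30.0 TPM, all above DMSO (log2 fold changes 0.42 and 0.33, SE 0.06 each). Antimycin A gave 19.8, 18.5 and 21.3 TPM, all below it (-0.34 ± 0.06, limma adjusted p = 4.11e-05). Libraries of the remaining 5 compounds lay between 21.3 and 28.7 TPM, with differences of -0.11 to 0.12 that did not pass. AEG 3482 therefore raised Egln1 and lowered Egln3, and also raised the third hydroxylase, Egln2, from 87.8 ± 1.49 to 137 ± 5.69 TPM (SD, log2 fold change 0.63). Podofilox raised Egln1 and Egln3 while Egln2 fell by 0.18, and Antimycin A lowered Egln1 and Egln3 with -0.04 for Egln2, which did not pass.

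Bnip3 and Pdk1 followed each other across the groups. Bnip3 (ENSMUSG00000078566, chromosome 7, 138890836 to 138909519, minus strand) encodes a receptor that tags mitochondria for autophagy. Pdk1 (ENSMUSG00000006494, chromosome 2, 71873224 to 71903858, plus strand) encodes a kinase that inhibits pyruvate dehydrogenase. In DMSO Bnip3 stood at 174, 196 and 263 TPM and Pdk1 at 14.1, 17.0 and 19.2 TPM (lowest, median, highest library). Cardamonin left 113, 132 and 99.3 TPM of Bnip3 and 6.17, 7.44 and 3.90 TPM of Pdk1. AEG 3482 left 113, 110 and 103 TPM of Bnip3 and 5.90, 6.76 and 4.47 TPM of Pdk1. All of these 6 libraries lay below DMSO for both genes. Bnip3 fell by 0.81 and 0.88 and Pdk1 by 1.40 and 1.41 on the log2 scale (SE 0.09 and 0.12, limma adjusted p = 1.96e-10 and 2.55e-10 for Pdk1).

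Podofilox raised both genes, Bnip3 to 309, 278 and 262 TPM and Pdk1 to 24.3, 22.7 and 23.2 TPM (log2 fold changes 0.49 and 0.47). Pdk1 lay wholly above DMSO, whereas the lowest Bnip3 library of Podofilox was under the highest of DMSO. Diphenyleneiodonium Cl (274, 245 and 255 TPM) and BerberineA (290.1, 261 and 249.6 TPM) also raised Bnip3, by 0.36 and 0.41, again with libraries inside the DMSO range. Their Pdk1 differences of 0.30 and 0.20 did not pass (limma adjusted p = 0.0810 and 0.287). Antimycin A separated the pair: Pdk1 fell to 11.2, 9.03 and 10.3 TPM (-0.66 ± 0.12, adjusted p = 1.36e-04), below every DMSO library, while Bnip3, at 184, 176 and 197 TPM, gave -0.11 (adjusted p = 0.391). In Dihydrorotenone Bnip3 was at 213, 223 and 242 TPM (0.17, not passed), and this passed when DMSO replicate 4, the highest control, was left out (0.25, adjusted p = 0.0297). Clofilium tosylate gave 0.12 for Bnip3 and -0.05 for Pdk1, and Dihydrorotenone -0.11 for Pdk1, none of which passed. Over the 9 group means the Pearson correlation of Bnip3 and Pdk1 on the log2 scale was 0.98, and among 9623 candidate genes each was the nearest to the other. Such a correlation is a description: the 9 means share the TPM scaling of their libraries.

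Bnip3 carries a caveat of measurement. Of its 31-base words in the annotated transcripts, 57% also occur in another gene, 46.7% in AC160336.1, which is not among the genes analysed here, and an antisense transcript and a pseudogene lie within its locus. How reads were divided there is uncertain. For Pdk1 the share was 0.641%. Among the relatives of Pdk1, Pdk2, Pdk3 and Pdk4 (named because they belong to its family, after their values were seen) each fell in Antimycin A, Cardamonin and Podofilox. In Podofilox Pdk4 dropped from 13.4 ± 0.93 to 5.74 ± 0.55 TPM (SD) while Pdk1 rose. Bnip3l, the closest relative of Bnip3, rose in AEG 3482 and Cardamonin (0.40 and 0.24), where Bnip3 fell.

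**Figure D3:**
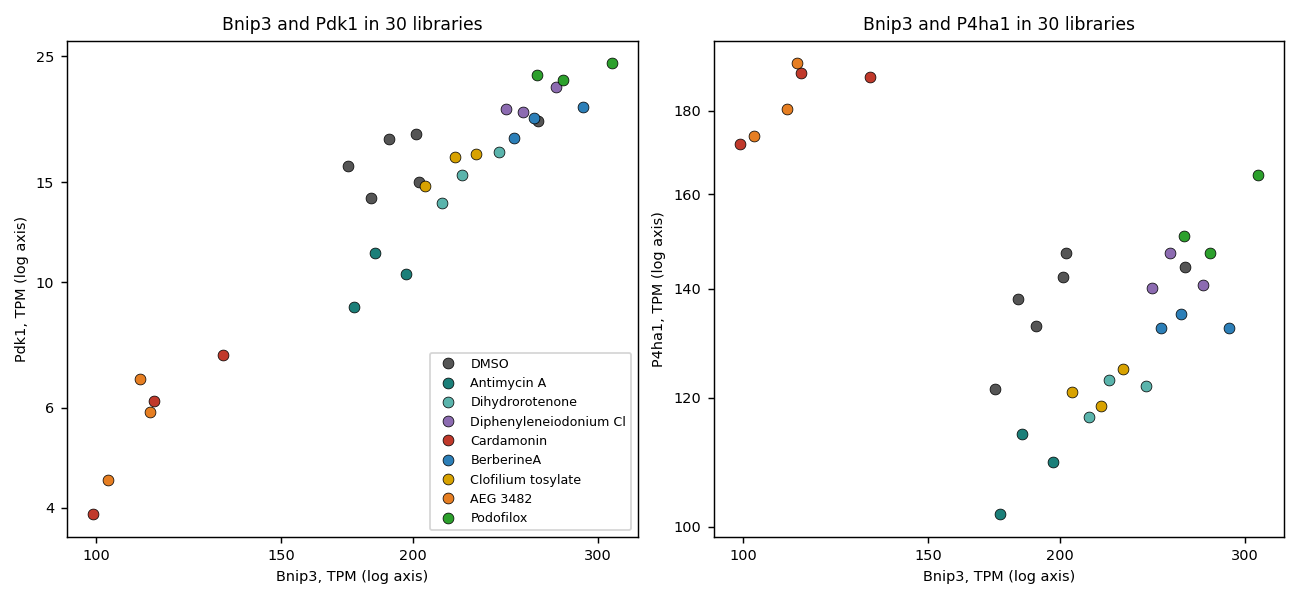
TPM of Bnip3 (horizontal) against Pdk1 (left) and P4ha1 (right) in each of the 30 libraries, coloured by group, with all axes on a log scale. The 6 Cardamonin and AEG 3482 libraries are lowest for Bnip3 and for Pdk1, and the same 6 are highest for P4ha1.

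P4ha1 went the other way under Cardamonin and AEG 3482. It encodes the catalytic subunit of collagen prolyl 4-hydroxylase, which lets collagen chains fold into a stable helix (ENSMUSG00000019916, chromosome 10, 59323296 to 59373304, plus strand). DMSO held 122, 140.2 and 147 TPM at the lowest, median and highest. In Cardamonin the libraries held 189.9, 189 and 172 TPM, and in AEG 3482 193, 180.4 and 174 TPM. All 6 exceeded every other library, with log2 fold changes of 0.41 and 0.40 (SE 0.05, limma adjusted p = 9.45e-08 and 1.74e-07). Antimycin A lowered the gene to 114, 102 and 109.5 TPM, below all DMSO libraries (-0.34). The remaining calls were small. Podofilox gave 0.16, and Dihydrorotenone and Clofilium tosylate gave -0.19 and -0.18. That of Podofilox was lost without its replicate 1 (0.11, adjusted p = 0.123), that of Dihydrorotenone without its replicate 1 (-0.16, 0.0918) and that of Clofilium tosylate without its replicate 2 (0.0505) or 3 (0.0707). Diphenyleneiodonium Cl (141, 140.2 and 147 TPM) and BerberineA (133, 135 and 132 TPM) stayed inside the DMSO range, with 0.05 and -0.04. P4ha2, which encodes another catalytic subunit, fell with 6 compounds, among them Cardamonin (-0.55), and rose with Podofilox (0.41). P4ha3 fell by 2.97 in Cardamonin and by 1.46 in Podofilox.

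Ndrg1 answered to Podofilox above all. Its product is a stress- and differentiation-associated cytoplasmic protein (ENSMUSG00000005125, chromosome 15, 66929318 to 66969640, minus strand). DMSO libraries ran from 58.9 through a median of 62.1 to 74.8 TPM. Podofilox gave 142, 137 and 126 TPM, the 3 highest values of the study, with a mean 2.08-fold that of DMSO (log2 fold change 1.05 ± 0.07 SE, limma adjusted p = 3.58e-12). AEG 3482 gave 43.2, 46.9 and 45.3 TPM, the 3 lowest (-0.51). Cardamonin, at 52.2, 53.2 and 59.99 TPM, overlapped DMSO with 1 library and fell by 0.23. Antimycin A, at 58.0, 56.1 and 58.7 TPM, sat just below the DMSO range, with -0.16 and an adjusted p of 0.0683, which passed without DMSO replicate 2 (0.0378) or 6 (0.0476) and after median-ratio scaling (0.0273). The remaining 4 compounds gave differences between -0.15 and 0.10, none of which passed. Of the 31-base words of Ndrg1, 7.32% are shared with another gene, mostly the antisense transcript Gm17035.

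Ankrd37, which encodes an ankyrin-repeat protein and is used as a sensitive HIF target, changed only in AEG 3482 among the 8 compounds (ENSMUSG00000050914, chromosome 8, 45996902 to 46005707, minus strand). There it held 4.90, 4.83 and 2.85 TPM, below all DMSO libraries, whose lowest, median and highest values were 6.79, 11.8 and 13.7 TPM. The log2 fold change was -1.20 ± 0.21 (SE, limma adjusted p = 2.18e-05). The gene was also the most variable of the 10 among controls, with a coefficient of variation of 25.04% in DMSO, against 6.48% for Egln1. Elsewhere its log2 fold changes lay between -0.36 in Antimycin A and 0.37 in Diphenyleneiodonium Cl, with an SE of 0.21 each, so that changes of this size were not detectable. Ankrd37 overlaps Lrp2bp and Ufsp2 on the opposite strand, and 19% of its 31-base words are shared with Lrp2bp, which held at most 0.571 TPM. Ufsp2 held 41.9 to 71.8 TPM, more than Ankrd37 itself, and whether counting used the strand is not given in the sources used here.

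Ddit4, also known as REDD1, encodes an inhibitor of mTORC1 that many stresses induce (ENSMUSG00000020108, chromosome 10, 59949669 to 59951834, minus strand). DMSO libraries held 45.9, 52.6 and 69.9 TPM at the lowest, median and highest. AEG 3482 raised it to 107, 116 and 104 TPM, a mean 1.92-fold that of DMSO (log2 fold change 0.95 ± 0.12 SE, limma adjusted p = 1.06e-07). Diphenyleneiodonium Cl gave 79.1, 80.9 and 77.3 TPM (0.50, adjusted p = 0.00240). Both groups lay wholly above DMSO. BerberineA was tight at 66.2, 65.5 and 65.7 TPM, inside the DMSO range, with 0.24 (adjusted p = 0.168). Podofilox, which raised 7 of the 10 genes, gave 67.6, 69.2 and 50.8 TPM for Ddit4 (0.15, adjusted p = 0.315), and Cardamonin 61.2, 76.2 and 54.3 TPM (0.18, adjusted p = 0.176). Antimycin A, Dihydrorotenone and Clofilium tosylate gave -0.07, 0.10 and 0.03. Ddit4l, its closest relative, also rose in AEG 3482 (1.52), and in Podofilox it fell by 0.54.

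Direct comparisons tested whether compounds differed from each other. Cardamonin and AEG 3482 both changed most of the 10 genes, and 7 differed between them: 4 were higher in Cardamonin and 3 lower, against 22.6% and 32.7% of all genes tested. Vegfa (log2 difference 1.25), Ankrd37 (1.5), Egln3 (0.67) and Ndrg1 (0.28) were higher in Cardamonin, and Adm (-1.82), Ddit4 (-0.77) and Egln1 (-0.51) were lower. For the remaining 3 the differences were 0.08 for Bnip3 (95% interval -0.15 to 0.30), 0.01 for Pdk1 (-0.29 to 0.30) and 0.01 for P4ha1 (-0.11 to 0.13). Podofilox against Cardamonin gave 6 higher and 2 lower, against 29.1% and 28.7%. Pdk1 differed by 1.87, Bnip3 by 1.3, Ndrg1 by 1.28, Egln3 by 1.17, Adm by 1.07 and Egln1 by 0.42, and Vegfa and P4ha1 were lower in Podofilox by 0.76 and 0.25. The share of rises among all calls in Cardamonin against AEG 3482 was 40.9% as deposited and 51.2% after quantile normalization.

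The respiratory inhibitors differed in Adm, Egln1, Egln3 and Pdk1. Antimycin A against Dihydrorotenone gave 4 genes lower and none higher, where 3.91% of all genes were lower and 11.6% higher. Adm was lower by 1.22 (SE 0.11, limma adjusted p = 3.06e-08), Pdk1 by 0.55, Egln3 by 0.47 and Egln1 by 0.24. The split of all calls was 74.8% rises as deposited and 52.5% after median-ratio scaling, under which Bnip3, Ndrg1 and P4ha1 were also lower (7 genes in all). Leaving out 1 library left 1 to 4 of these calls: 3 remained without Antimycin A replicate 3, 2 without Antimycin A replicate 1 or 2 or Dihydrorotenone replicate 2, and 1, that of Adm, without Dihydrorotenone replicate 3. With both groups fitted alone, Egln3 (adjusted p = 0.146) and Egln1 (0.122) did not pass, and without a filter on low values Egln3 did not (0.0838). Against Clofilium tosylate, Antimycin A was lower in 3 genes and higher in none, with 1.36% and 3.85% of all genes so called: Adm by 1.05, Pdk1 by 0.61 and Egln1 by 0.26. Without Antimycin A replicate 2, 1 of these calls was left, that of Adm. The Egln1 call was also lost without Antimycin A replicate 1 or Clofilium tosylate replicate 2 or 3 (adjusted p = 0.0702 to 0.0798), and that of Pdk1 without Clofilium tosylate replicate 1 (0.0512). The share of rises there was 73.8% as deposited and 51.3% after quantile normalization.

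Diphenyleneiodonium Cl exceeded Dihydrorotenone in 2 genes and fell below it in none, where 3.11% of all genes were higher and 0.572% lower. Vegfa was higher by 0.58 (SE 0.11, limma adjusted p = 0.00248) and P4ha1 by 0.24 (adjusted p = 0.0205). The P4ha1 call was lost without Dihydrorotenone replicate 1 (adjusted p = 0.109) or 3 (0.0521) and without any 1 of the 3 Diphenyleneiodonium Cl libraries (0.0510 to 0.101), as well as after median-ratio scaling (0.0744). BerberineA exceeded Dihydrorotenone in Vegfa alone, by 0.57 (adjusted p = 0.0132), with 1.31% of all genes higher and 0.198% lower. That call was lost without Dihydrorotenone replicate 1 (0.44, adjusted p = 0.0688) or BerberineA replicate 2 (0.55, 0.0524). The shares of rises among all calls were 84.5% and 86.9% in these 2 comparisons and 66.8% and 42.6% after median-ratio scaling.

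Hif1a and Epas1, which encode the oxygen-regulated subunits, fell furthest in Cardamonin and AEG 3482. Hif1a was at 254 ± 21.7 TPM in DMSO (SD, n = 6), 121 ± 14.0 in Cardamonin and 146 ± 10.4 in AEG 3482 (n = 3 each). The log2 fold changes were -1.07 and -0.79, and the values of -0.14 to 0.04 in the remaining 6 compounds did not pass. Epas1, which encodes HIF-2 alpha, was at 60.6 ± 3.85 TPM in DMSO and dropped to 4.04 ± 1.83 in Cardamonin and 5.37 ± 0.47 in AEG 3482, by 3.69 and 3.27 on the log2 scale. It also fell in 5 other compounds, by 0.38 in Diphenyleneiodonium Cl to 0.86 in Antimycin A, while Dihydrorotenone gave -0.24, which did not pass. Podofilox, which raised 7 of the 10 targets, lowered Epas1 by 0.81 and left Hif1a at 247 ± 13.5 TPM. Arnt, the shared partner, fell in Cardamonin alone (-0.34). AEG 3482 raised Vhl (0.39) and Cited2, a HIF-induced competitor for the coactivator EP300 (0.87), and 6 other compounds lowered Cited2 by 0.19 to 0.46. Of the 16 components tested of 17 listed, 9 rose and 6 fell in Cardamonin, 8 and 3 in AEG 3482, and 5 and 3 in Podofilox. Beside 37.3% and 33%, 41.3% and 26.8%, and 26.2% and 20% of all genes, the counts for AEG 3482 and Podofilox lie near the background.

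**Figure D4:**
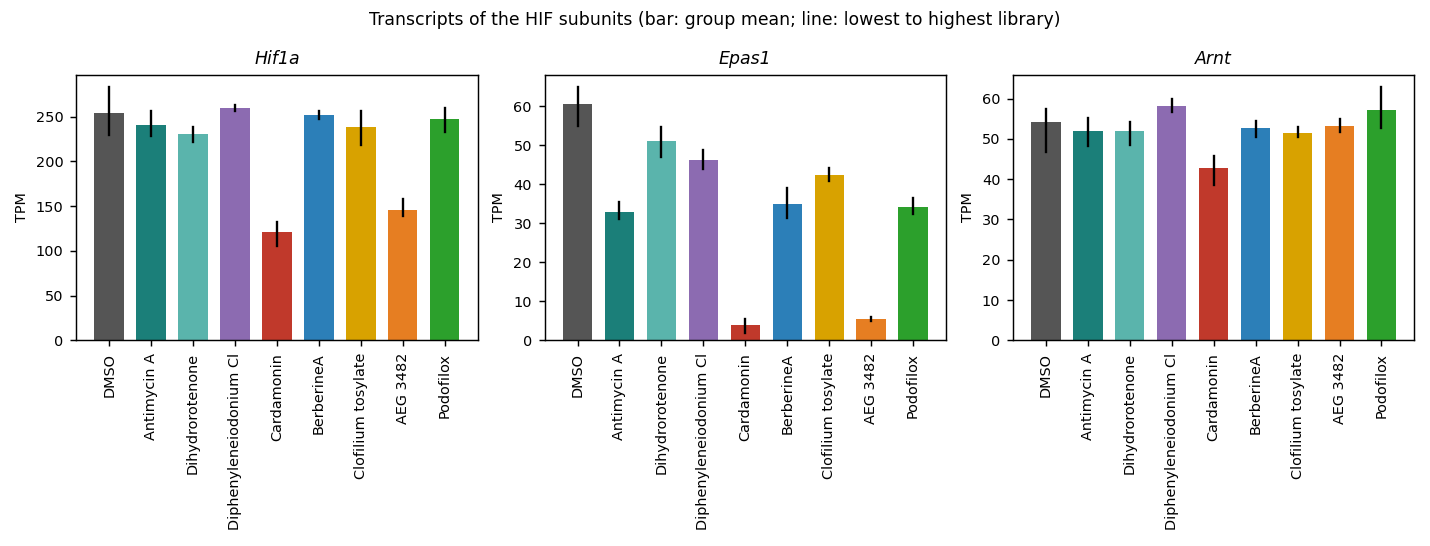
Group mean TPM (bars, from 0) of the HIF subunit transcripts Hif1a, Epas1 and Arnt, with lines from the lowest to the highest library. Hif1a averages 121 and 146 TPM in Cardamonin and AEG 3482 against 254 in DMSO, and Epas1 averages 4.04 and 5.37 TPM there against 60.6.

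Other HIF targets outside glycolysis were counted in the same comparisons, each to be read beside the shares of all genes given above for that compound. Of 38 tested (41 listed), 19 rose and 6 fell in Podofilox, with a median log2 fold change of 0.29. The 3 largest changes were those of Gbe1, a glycogen branching enzyme (1.06), the transcriptional repressor gene Bhlhe40 (1.05) and Stc2 (0.98). In Antimycin A 3 rose and 15 fell, among them Angptl4, an inhibitor of lipoprotein lipase (-1.74), and Loxl2 (-1.03), which shares 43.3% of its 31-base words with Gm21451. Cardamonin gave 13 rises and 21 falls and AEG 3482 12 and 16, both with Gbe1 up (3.30 and 2.37) and the chemokine gene Cxcl12 down (-2.69 and -2.68). The falls in both lie above the 33% and 26.8% of all genes that fell. The rises lie near the 37.3% of all genes that rose in Cardamonin and below the 41.3% in AEG 3482. Diphenyleneiodonium Cl gave 8 rises and 5 falls, BerberineA 6 and 6, Clofilium tosylate 4 and 9 and Dihydrorotenone 2 and 7. Angptl4, singled out after its values were seen, fell with all 8 compounds, from 166 ± 19.5 TPM in DMSO to means of 49.2 to 91.0 TPM. The 18 glycolytic targets gave 14 rises and no fall in Podofilox, 2 rises and 11 falls in Antimycin A, and 10 and 6 in Cardamonin and 12 and 3 in AEG 3482. The 10 and 12 glycolytic rises in Cardamonin and AEG 3482 stand beside 37.3% and 41.3% of all genes that rose. The 10 genes gave more falls than rises there, but their 4 falls in Cardamonin lie near the background. This contrast between lists was not tested. ATF4 targets, of which Ddit4 is also one in other settings, rose with 5 compounds most often: 12 of 12 in Podofilox, 11 each in Antimycin A and Cardamonin, 10 in Clofilium tosylate and 9 in AEG 3482. Of all genes tested, 26.2%, 21.8%, 37.3%, 10.9% and 41.3% rose with these compounds, in that order. BerberineA raised 3 of the ATF4 targets and Diphenyleneiodonium Cl raised 2 and lowered 4, and under Dihydrorotenone none rose and 5 fell. Of 10 p53 targets, another group that Ddit4 is known to belong to, 9 rose in each of AEG 3482, Diphenyleneiodonium Cl and Antimycin A, 8 in Cardamonin and BerberineA, and 5 in Clofilium tosylate. The shares of all genes that rose were 41.3%, 14%, 21.8%, 37.3%, 12.6% and 10.9%, in that order. Except in BerberineA, 1 of the p53 targets, Sesn1, fell in each of these compounds. Dihydrorotenone raised 1, and Podofilox raised 1 and lowered 3. Ddit4 is induced by glucocorticoids too. Of 4 other glucocorticoid targets tested, at most 2 rose, in AEG 3482, and at most 2 fell, in Podofilox. The family relatives of the 10 genes (21 tested of 25) gave 4 rises and 17 falls in Cardamonin, 6 and 10 in AEG 3482, 5 and 12 in Podofilox and 2 and 10 in Antimycin A, where 33%, 26.8%, 20% and 15.5% of all genes fell. Vegfc, the growth factor of lymphatic vessels, led the falls in AEG 3482 (-2.48) and fell by 2.33 in Cardamonin, where Vegfa rose.

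**Figure D5:**
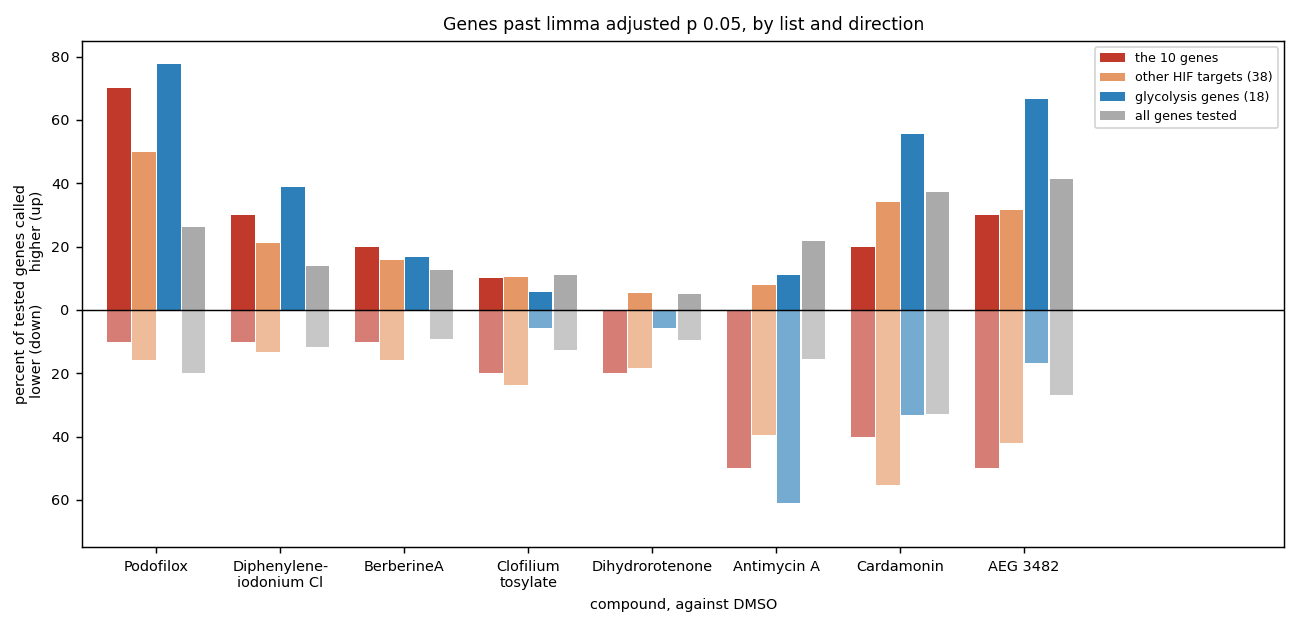
Percent of tested genes called higher (up from 0) and lower (down from 0) against DMSO at a limma adjusted p below 0.05, for the 10 genes, 38 other HIF targets, 18 glycolytic targets and all 13644 genes tested. In Podofilox 7 of the 10 genes rose where 26.2% of all genes did, and in Antimycin A 5 fell where 15.5% did.

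Markers of other cell types moved in some of these groups. Summed over 6 macrophage and leukocyte markers, the level was 120.7 to 141 TPM in Podofilox, 84.1 to 105 in Cardamonin and 62.9 to 71.4 in DMSO, with Cd14 reaching 118 TPM and Ptprc and Itgam below 1 TPM in every library. Their part in the changes under Podofilox and Cardamonin was not tested. The sum of 4 melanocyte markers (Mlana, Pmel, Dct and Tyr) was 16.1 to 18.6 TPM in Antimycin A, 4.54 to 6.94 in DMSO and 1.27 to 2.22 in Cardamonin and AEG 3482, and it also lay above DMSO in Dihydrorotenone, Diphenyleneiodonium Cl, BerberineA and Clofilium tosylate. These differences rest mostly on Mlana: Dct and Tyr held at most 0.047 and 0.123 TPM and Pmel 0.947 to 2.27 TPM. The 4 endothelial markers (Pecam1, Cdh5, Kdr and Tek) summed to 1.09 to 1.77 TPM in Cardamonin and AEG 3482 and 5.42 to 8.71 in DMSO, and the 3 adipocyte markers, mostly Fabp4, to 5.59 to 8.16 TPM in AEG 3482 and 17.2 to 28.6 in DMSO. Of the endothelial markers only Tek exceeded 1 TPM in any library, so that the difference in their sum rests mostly on Tek. Smooth muscle and pericyte markers summed to at most 5.49 TPM in any library. The sum of the 10 fibroblast markers lay below the DMSO range of 16520 to 18980 TPM in every library of 7 compounds, at 7124 to 9128 in Cardamonin, 11950 to 13050 in Antimycin A and 13730 to 15910 in the other 5, and only AEG 3482 overlapped it. The part of these differences in the changes of the 10 genes was not tested.

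Genes nearest to each member in pattern were ranked by Pearson correlation over the 9 group means. Of the 30 nearest genes, 3 for each, 6 are on the HIF target lists, counting Bnip3 and Pdk1 once for each other, where 0.592% of the candidates are. The nearest genes are the highest of 9623 correlations over only 9 means, so that high values are selected. The lists were chosen with earlier results of these data known, and these shares are a description and not a test. Bnip3 and Pdk1 named each other, and for both Pfkfb2 stood at rank 3 (0.96). Egln3 was nearest to Slc16a3, the lactate exporter (0.95), and Pfkfb3, a regulator of glycolysis (0.92), with Ndrg1 at rank 10 (0.90) and Pdk1 at rank 34 (0.85). Egln1 stood nearest to Kmt5b (0.95) and the glycolytic enzyme gene Tpi1 (0.95), and P4ha1 nearest to Slc35e2 (0.98) and Eno1 (0.97), a glycolytic gene that shares 27.7% of its 31-base words with Eno1b. Adm was nearest to Stard4 (0.98), Etv5 (0.96) and Hmgcs1 (0.94), Vegfa to Ptbp1 (0.95), Ndrg1 to Elmsan1 (0.98), Ankrd37 to Ntng2 (0.93) and Ddit4 to Fam160a2 (0.96). Among the 10 genes themselves the relations ran from 0.98 for Bnip3 with Pdk1 to -0.60 for Ankrd37 with Ddit4, and Bnip3 with P4ha1 gave -0.59. Group means in neighbouring places of a gene's order often shared their library ranges: of 8 such steps per gene, the libraries were separate in 3 for Vegfa, Pdk1 and P4ha1, in 1 for Ankrd37 and in 2 for each of the remaining 6 genes.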

How the data were processed

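The authors quantified the reads with kallisto 0.43.1 after FastQC, on build mm10, per the submitters' processing notes, and summed transcripts per gene with tximport, per the series' text. They deposited TPM, a length-corrected share of each library, with no counts, so depth is unknown and each value depends on the other genes. The 10 genes and the comparison lists were chosen with earlier results of these data known. Gene identifiers were named from GENCODE M21 (29426 of 29861 matched). limma 3.58.1 (R 4.3.3) was fitted to log2(TPM + 1) of 13644 genes in all 30 libraries, with 1 mean per group (21 residual degrees of freedom) and an intensity trend. Benjamini-Hochberg adjustment ran over all genes tested within each of 14 comparisons. The study's text names DESeq2 on its own counts, which were not used here. A fold change on the log2(TPM + 1) scale understates changes of low genes such as Egln3. Named genes are the 10 genes, the pathway components, the 3 largest passing changes of each list per comparison and the 3 nearest genes by correlation (mean of at least 5 TPM); others are said to be chosen after their values were seen. 1 gene that this rule names is not reported here. Shared 31-base words were counted in the GENCODE transcripts. The fit was tested on simulated data.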

Additional observations from a re-analysis of the deposited data

Results flagged for a closer look

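Bnip3 in DMSO replicate 4 stood apart from the other controls, at 263.3 TPM against 202.8 TPM for the next library and 173.7 TPM for the lowest. The gap is 0.675 of the whole range, above Dixon's 95% critical value for 6 libraries. Of the 10 genes tested this way in DMSO, 1 was past the limit, and chance alone marks about 1 group in 20. Without that library the log2 fold changes of Bnip3 were 0.57 in Podofilox, 0.49 in BerberineA, 0.44 in Diphenyleneiodonium Cl, -0.73 in Cardamonin and -0.80 in AEG 3482, all still past the threshold by limma, and 0.25 in Dihydrorotenone, which then passed.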

How the results depend on the processing

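No alternative reversed the direction of a called difference for the 10 genes, and 79 tests under an alternative fell on the other side of the threshold. Of 39 calls against DMSO, 35 kept their side under every alternative that measured the gene, and 4 were lost under at least 1 (Vegfa in Clofilium tosylate; P4ha1 in Clofilium tosylate, Dihydrorotenone and Podofilox). Fitting both compared groups alone left 1 of the 10 genes called in Dihydrorotenone (2 before), 1 in Clofilium tosylate (3), 1 in Diphenyleneiodonium Cl against Dihydrorotenone (2) and 0 in BerberineA against Dihydrorotenone (1). Antimycin A against Dihydrorotenone gave 7 after median-ratio scaling and 7 after quantile normalization (4 before), and Diphenyleneiodonium Cl against Dihydrorotenone 1 after quantile normalization. With 1 library left out the counts ran from 1 to 3 in Dihydrorotenone and in Clofilium tosylate, from 1 to 4 and 1 to 3 in Antimycin A against Dihydrorotenone and Clofilium tosylate, from 1 to 2 in Diphenyleneiodonium Cl against Dihydrorotenone and from 0 to 1 in BerberineA against Dihydrorotenone.

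Over all genes, Dihydrorotenone against DMSO gave 1963 calls, 898 with both groups alone and 1233 to 2179 with 1 library left out. BerberineA against Dihydrorotenone gave 206, and 132 without a filter, 94 after median-ratio scaling, 103 after quantile normalization, 2 with both groups alone and 32 to 165 with 1 left out. Antimycin A against Clofilium tosylate gave 711, 385 alone and 315 to 513; Diphenyleneiodonium Cl against Dihydrorotenone 502, 305 alone and 235 to 350.

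Replicate numbers did not pair the libraries: same-numbered libraries had a median correlation of 0.0080 (108 pairs, 4 over 0.1) and others 0.00081 (288 pairs). With the replicate block, Diphenyleneiodonium Cl against Dihydrorotenone gave 4 genes (2 without it), BerberineA against Dihydrorotenone 353 calls over all genes, and Ddit4 passed in Cardamonin (0.30, adjusted p = 0.00654), BerberineA (0.36, 0.00864) and Podofilox (0.27, 0.0207), while Egln3 did not pass in Antimycin A against Dihydrorotenone (0.0673).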

Other observations

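Within DMSO, replicates 2, 4 and 6 lay above replicates 1, 3 and 5 in 3 of the 10 genes, a pattern noticed after the values were seen. Vegfa held 93.7, 98.3 and 90.9 TPM in the first set and 72.9, 75.9 and 73.3 in the second. Ankrd37 held 13.7, 13.1 and 13.04 TPM against 8.93, 10.6 and 6.79. Ddit4 held 56.0, 69.9 and 69.8 TPM against 49.2, 48.3 and 45.9. Adm was highest in replicates 3 and 5, at 303.8 and 320.1 TPM. The labels give these libraries no difference in treatment, and the split was not tested. The share of all genes that split this way is not given here, so a library effect cannot be told from a few genes picked by eye.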
